A study of Homo sapiens with 6 samples.

Results

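Transcripts of the nuclear-encoded respiratory chain were compared between SUM-159 cells that carried SH3GL2 and SUM-159 cells that carried an empty vector. The members were all probe sets whose platform annotation gives a gene of complexes I to IV or cytochrome c as its only symbol, from a list of 49 genes. They came to 65 probe sets of 44 genes, out of 22215 probe sets in all and 11963 genes that had their own. SUM-159 is a triple-negative breast cancer cell line, and SH3GL2 (endophilin A1) is a membrane-bending protein of endocytosis. Both groups had been stably transfected with pcDNA 3.1, with the SH3GL2 insert in 3 arrays and without it in the other 3. The paper's methods for its metastasis experiments state that stable SUM-159 clones were cultured with G418. No other allele or agent is given for the array samples. The study sought downstream targets of SH3GL2. Neither the labels nor the methods say whether the triplicates were separate cultures or clones, so the p-values measure only the spread between these samples, which may be technical. RNA came from whole cultures, so a change in every cell and a change in part of the cells cannot be told apart.

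Respiratory chain complexes sit in the inner mitochondrial membrane and pass electrons from NADH and succinate to oxygen. Complex I (NADH dehydrogenase) and complex II (succinate dehydrogenase) feed electrons to ubiquinone, complex III (the cytochrome bc1 complex) hands them to cytochrome c, and complex IV (cytochrome c oxidase) reduces oxygen. Complexes I, III and IV pump protons, and ATP synthase uses the resulting gradient. Most subunits are encoded in the nucleus and imported, while a small set of core subunits is encoded by mitochondrial DNA. Nuclear respiratory factor 1 (NRF1), ETS factors of the GABP type and YY1 are known regulators of these nuclear genes.

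The values are log2 signals of each probe set as deposited, on Affymetrix U133A 2.0 arrays. A reference for signal without a transcript was set by 70 probe sets of 46 genes of other organs, whose median was 4.86 and whose 95th percentile was 7.10 on the log2 scale. Of all probe sets, 48.6% had a mean over the 6 arrays above that percentile. Pairs of arrays correlated across probe sets at a Pearson r of 0.9971 to 0.9982 in the same group, and of 0.9947 to 0.9965 in different ones. The 1 probe set of SH3GL2 itself read 3.22 ± 0.04 in empty vector arrays and 3.26 ± 0.09 in SH3GL2 arrays (SD, n = 3 each), below the reference median in both. The paper reports stable overexpression of SH3GL2 in SUM-159 cells. The arrays did not show it on this 1 probe set, and the groups are named here by their labels. Of 12 measured markers for the cell line label, VIM, CD44, EGFR, CDH2, ZEB1, FN1, KRT8, KRT18 and ERBB2 lay above the reference, the keratins at means of 9.70 and 11.85 and ERBB2 at 8.47, and ESR1, PGR and CDH1 lay below it. The mesenchymal markers ZEB1 and FN1 fell by 0.62 and 0.31 on the log2 scale (adjusted p = 0.00188 and 0.00592, limma), and the other 10 did not pass. All 12 measured markers of white blood cells, endothelium and fat lay below the reference, and 0 of them changed by limma, with 1 at an unadjusted p under 0.05.

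Promoters were examined because the members share regulators that the choice of genes did not use. RefSeq promoter windows of GRCh38.p14 (250 bases before to 50 after the start) were found for 42 of the 49 listed genes; NDUFA4, NDUFB5, NDUFS5, SDHC, UQCRB, CYC1 and COX6C were not analysed here. The NRF1 core GCATGCGC, on either strand, was held by 10 of the 42 windows (23.8%), against 3.3% of 27305 promoters and 4.4% of 9563 promoters of genes on the array. The ETS core CCGGAAG was held by 13 (31.0%, against 10.7% and 15.2%), and the YY1 core AAGATGG by 10 (23.8%, against 6.1% and 7.2%). The Sp1 core GGGCGG (57.1%, against 44.6% and 63.1%) and the CCAAT box (28.6%, against 35.7% and 37.3%) were not more frequent than in promoters of genes on the array. The ETS core ends in the letters that begin the YY1 core, so both can share bases. A match is a description of these letters and not a measured binding site. The windows of NDUFB4 (a member that changed), CYCS and COX6A1 are given 5′ to 3′ over the 250 bases before the start, with the NRF1 and ETS cores in capitals. They lie at chr3:120596086-120596335 on the plus strand, chr7:25125261-25125510 on the minus strand and chr12:120437863-120438112 on the plus strand.
NDUFB4: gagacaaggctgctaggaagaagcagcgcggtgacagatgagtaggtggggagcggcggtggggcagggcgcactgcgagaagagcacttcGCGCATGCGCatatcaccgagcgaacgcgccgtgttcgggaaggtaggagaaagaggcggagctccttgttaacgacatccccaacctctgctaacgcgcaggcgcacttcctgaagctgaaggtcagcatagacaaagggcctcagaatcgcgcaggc
CYCS: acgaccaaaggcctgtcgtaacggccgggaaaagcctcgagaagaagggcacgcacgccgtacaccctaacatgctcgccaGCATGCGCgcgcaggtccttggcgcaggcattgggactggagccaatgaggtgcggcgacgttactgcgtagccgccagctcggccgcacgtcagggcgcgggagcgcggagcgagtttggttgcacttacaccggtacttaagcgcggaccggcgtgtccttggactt
COX6A1: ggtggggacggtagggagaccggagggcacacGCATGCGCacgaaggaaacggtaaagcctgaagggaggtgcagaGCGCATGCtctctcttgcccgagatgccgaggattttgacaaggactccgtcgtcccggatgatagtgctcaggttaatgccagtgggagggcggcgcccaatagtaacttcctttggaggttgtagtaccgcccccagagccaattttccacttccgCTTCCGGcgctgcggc
In NDUFB4 the NRF1 core was present on both strands in overlapping positions, beginning 159 and 157 bases before the start. In CYCS it began 169 bases before the start. COX6A1 held it 218 and 174 bases before the start, with an ETS core at 16 bases.

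SH3GL2 arrays differed little from empty vector arrays in respiratory chain transcripts. By limma, 2 of the 65 probe sets rose (3.08%) and 0 fell at an adjusted p under 0.05, against 1.99% higher and 2.18% lower over all 22215 probe sets. The other 63 did not pass. At an unadjusted p under 0.05 (limma) 10 of the 65 were higher and 2 lower, against 1831 higher and 1693 lower of all 22215 probe sets. Among the probe sets above the reference, 2 of 59 members rose (3.39%), against 3.24% higher and 3.36% lower of 10789. The share of members called at the adjusted threshold was thus near the background, while the unadjusted counts of the members leaned to higher values. Values of the 3 arrays of each group did not overlap in 15 of 65 probe sets (23.1%), against 19.4% over all probe sets. Above the reference the direction was the other way, with 13 of 59 members (22%) against 25.3% of the 10789 probe sets.

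Given the spread between these samples, which may be technical, the size of the differences was bounded more tightly than the calls alone show. The bounds hold for the main setting of limma. Without its intensity trend the standard errors were larger, at 0.074 against 0.049 for CYCS and 0.065 against 0.046 for NDUFB5. For the 59 member probe sets above the reference, each 95% confidence interval was taken by itself. It lay within 1.1-fold in either direction for 8 of them, within 1.2-fold for 43, within 1.3-fold for 55 and within 1.5-fold for all 59. The lowest bound was 0.763-fold for NDUFA5 and the highest was 1.34-fold for NDUFB5. The median log2 fold change over the 65 probe sets was 0.043, with quartiles of -0.017 and 0.10, against 0.010 over all probe sets. Positive values were found for 44 members (67.7%), against 52.9% of all probe sets. The medians were 0.058 for complex I (32 probe sets), 0.033 for complex II (7), 0.043 for complex III (8) and 0.037 for complex IV (17), all positive under quantile normalization, median centring and cyclic loess as well. With 1 probe set a gene, the median of complex II was -0.027. Leaving out array SH3GL2 2 moved the median of all members to 0.0033.

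**Figure D1:**
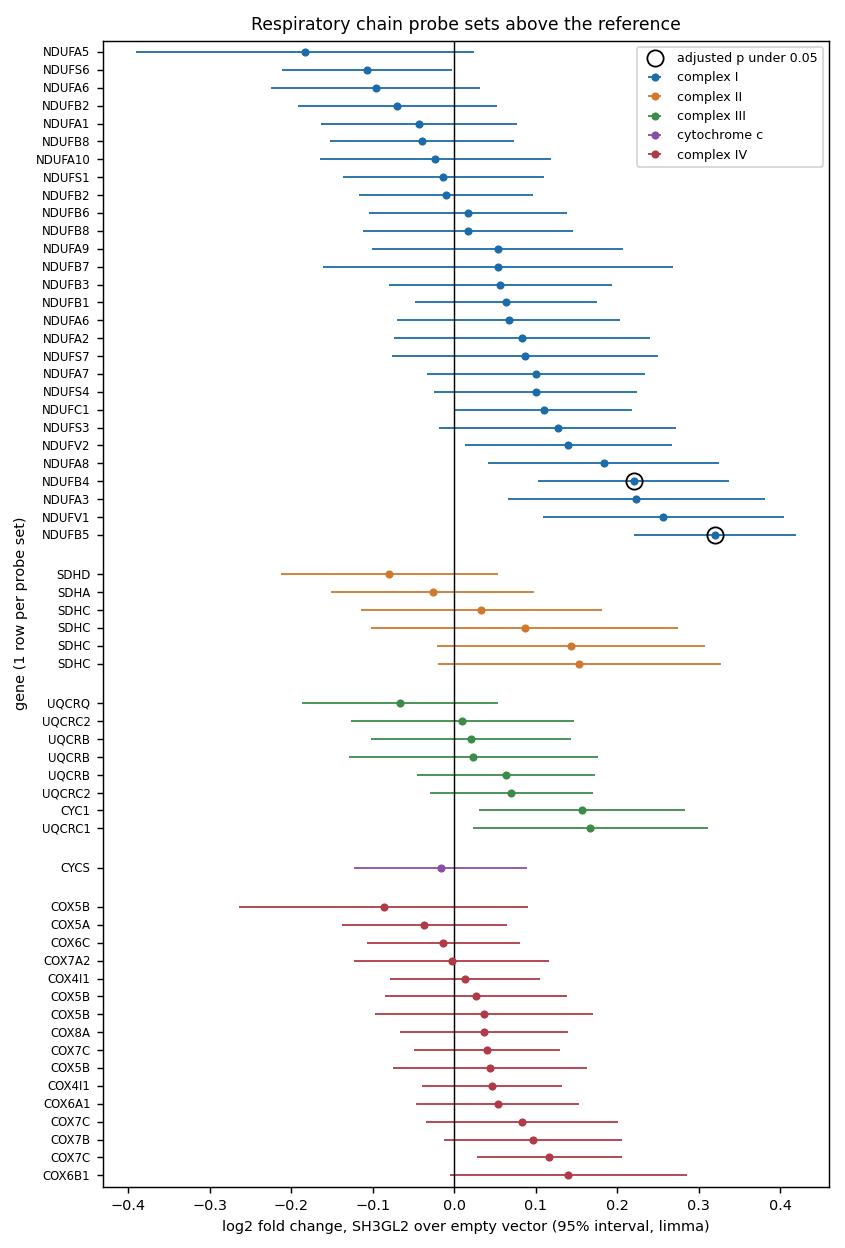
Log2 fold change of SH3GL2 over empty vector arrays (x axis) for the 59 member probe sets above the reference (y axis, 1 row each, named by gene and ordered within complexes). Points are the estimates and lines the 95% intervals from limma; the circled points, NDUFB5 and NDUFB4, are the 2 that passed, and most intervals cross 0.

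Complex I held both probe sets that rose. NDUFB5, an accessory subunit of the membrane arm, read 11.64, 11.62 and 11.62 in the empty vector arrays and 11.93, 11.94 and 11.97 in the SH3GL2 arrays. All SH3GL2 arrays lay above all empty vector arrays, and the spread within each group was small beside the distance between them. Its log2 fold change was 0.32 ± 0.05 (SE), or 1.25-fold, with an adjusted p of 0.00119 in limma. It passed under every alternative run, leaving out each array included.

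NDUFB4, another accessory subunit of the membrane arm, read 12.45, 12.49 and 12.50 against 12.62, 12.82 and 12.66 in the SH3GL2 arrays. The groups did not overlap, and array SH3GL2 2 was the highest. The log2 fold change was 0.22 ± 0.05, or 1.16-fold (adjusted p = 0.0395, limma). This call was lost when any 1 array other than SH3GL2 1 was left out, with adjusted p of 0.0781 to 0.126, and under 5 other settings given in the closing section.

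Next by adjusted p among complex I genes, and chosen after their values were seen, were NDUFV1, NDUFA3 and NDUFA8, the first 2 with a larger log2 fold change than NDUFB4. NDUFV1, the core subunit that binds NADH and FMN, read 10.66, 10.53 and 10.66 against 10.76, 10.99 and 10.87, a log2 fold change of 0.26 (adjusted p = 0.0559). For NDUFA3, an accessory subunit, the signals were 10.64, 10.60 and 10.62 against 10.70, 11.01 and 10.82, a difference of 0.22 (adjusted p = 0.126). The accessory subunit NDUFA8 gave 11.54, 11.57 and 11.48 against 11.58, 11.85 and 11.71, a difference of 0.18 (adjusted p = 0.169). None of the 3 overlapped between groups, though the nearest NDUFA8 values, 11.57 and 11.58, differ only in the last digit deposited. None passed, and in each the highest array was SH3GL2 2. NDUFV1 and NDUFA3 passed together with NDUFB5 and NDUFB4 when array SH3GL2 1 was left out, which gave 4 called members.

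The other listed core subunits of complex I with their own probe sets had smaller estimates. The log2 fold change was 0.14 for NDUFV2, which carries an iron-sulfur cluster next to NDUFV1, with an adjusted p of 0.259. It was -0.013 for NDUFS1, the largest iron-sulfur subunit, 0.13 for NDUFS3 and 0.087 for NDUFS7, both at the ubiquinone end of the peripheral arm. Of these core subunits only NDUFS1 lay below 0, with a 95% interval of -0.14 to 0.11, and none passed. NDUFB2, an accessory subunit with the estimate nearest to 0 in the complex, read 12.25, 12.25 and 12.20 against 12.17, 12.30 and 12.20, which gave -0.010 (95% interval -0.12 to 0.097).

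At the low end stood the accessory subunits NDUFA5 and NDUFS6, also chosen after their values were seen. NDUFA5 read 10.97, 11.02 and 11.27 against 11.11, 10.73 and 10.87, a difference of -0.18 on the log2 scale (adjusted p = 0.394). Its groups overlapped and its spread within groups was wide, with an SD of 0.16 and 0.19. For NDUFS6 the values were 13.06, 13.03 and 12.99 against 12.88, 13.01 and 12.87, a difference of -0.11 (adjusted p = 0.300) with overlap at array SH3GL2 2. Neither passed, and the range over all complex I probe sets was -0.18 to 0.32.

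None of the 7 probe sets of complex II passed. SDHA, the flavoprotein that oxidizes succinate, read 11.54, 11.50 and 11.45 against 11.37, 11.55 and 11.49, a log2 fold change of -0.027 (95% interval -0.15 to 0.098). SDHC, a membrane anchor, gave on its brightest probe set 10, 9.94 and 9.79 against 9.94, 10.21 and 10.04, a difference of 0.15 (adjusted p = 0.395). The groups overlapped in both genes. The other SDHC probe sets gave 0.14, 0.033 and 0.087, the same sign in all 4. SDHD, the other anchor, read 10.22, 10.31 and 10.37 against 10.22, 10.18 and 10.26, a difference of -0.080 (adjusted p = 0.614). Its second probe set, below the reference, gave -0.27 (adjusted p = 0.165). SDHB, the iron-sulfur subunit, was not analysed here.

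Complex III had 8 probe sets, of which 7 were positive and none passed. The catalytic subunit CYC1, cytochrome c1, read 11.20, 11.14 and 11.10 against 11.21, 11.38 and 11.32. Its groups did not overlap, by a margin of 0.01, which equals the last digit deposited. The log2 fold change was 0.16 ± 0.06 (adjusted p = 0.191). The core protein UQCRC1 read 10.09, 10.15 and 10.20 against 10.22, 10.42 and 10.30, a difference of 0.17 (adjusted p = 0.226), again without overlap. Its partner UQCRC2 read 11.04, 11.17 and 11.24 against 11.19, 11.21 and 11.08 on the probe set nearest to 0, a difference of 0.010 (95% interval -0.13 to 0.15), and 0.070 on its other probe set. The small subunit UQCRB gave 0.020, 0.063 and 0.023 on its 3 probe sets, and UQCRQ gave -0.067.

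CYCS, the somatic cytochrome c that carries electrons from complex III to complex IV and also takes part in apoptosis, read 13.33, 13.42 and 13.51 against 13.42, 13.36 and 13.43. The SH3GL2 values lay inside the range of the empty vector values. The log2 fold change was -0.017 ± 0.05 (adjusted p = 0.924), with an interval of 0.919- to 1.06-fold.

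Complex IV was represented by all 10 of its listed genes and 17 probe sets, and none passed. The estimates ran from -0.087 to 0.14. COX6B1, which bridges the monomers on the intermembrane side, had the largest and read 11.94, 11.93 and 11.88 against 11.92, 12.22 and 12.03, a difference of 0.14 on the log2 scale (adjusted p = 0.339). The groups overlapped because array SH3GL2 1 stayed within the empty vector range. COX7A2, a small structural subunit, had the smallest and read 12.72, 12.79 and 12.85 against 12.68, 12.87 and 12.80, a difference of -0.0033 (95% interval -0.12 to 0.12). Several probe sets measured the next genes. COX7C, another small subunit, gave 0.12, 0.040 and 0.083, and the brightest 3 of COX5B, a zinc-binding subunit, gave 0.027, 0.037 and 0.043. The dimmest COX5B probe set gave -0.087. COX6A1, whose promoter is shown above, gave 0.053 and COX4I1 gave 0.047 on its brightest probe set.

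**Figure D2:**
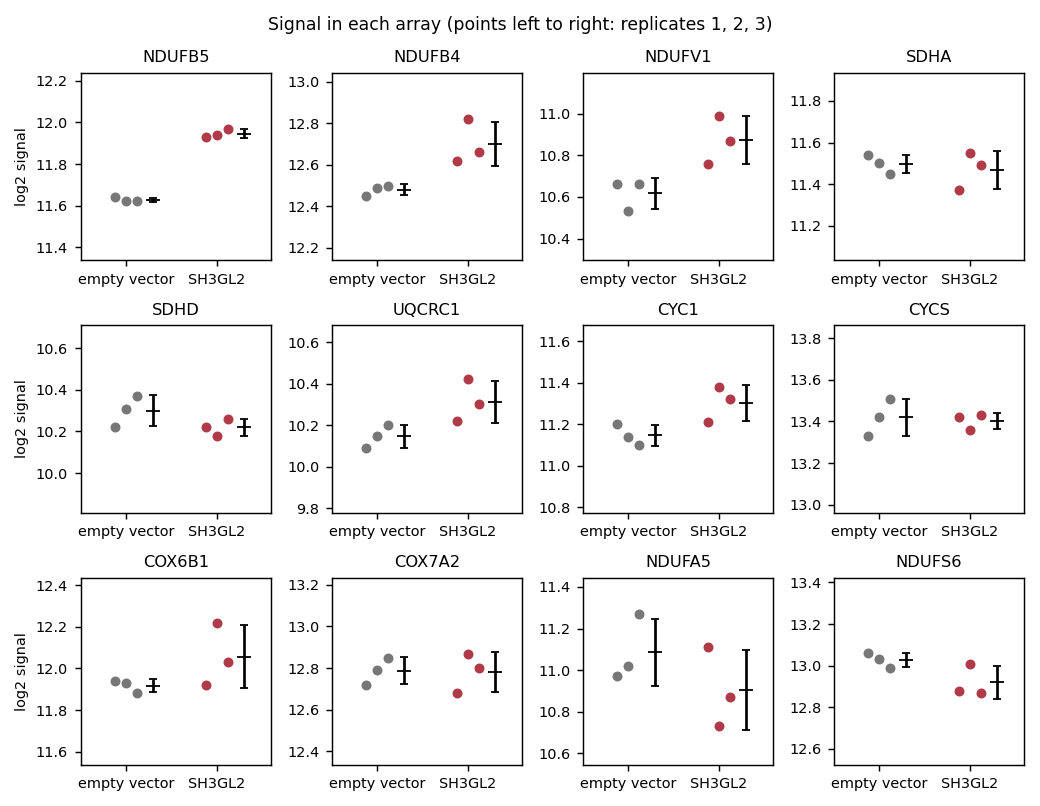
Log2 signal (y axis, a span of 0.9 in each panel) of 12 member genes in the 3 empty vector arrays (grey) and the 3 SH3GL2 arrays (red), replicates 1 to 3 from left to right, with the group mean and SD in black; the brightest probe set of each gene is shown. NDUFB5 is separated by far more than its spread, while SDHA, CYCS and COX7A2 overlap fully.

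Probe sets of the same gene did not always share a sign. Of the 44 genes, 31 had 1 probe set and 13 had several, and 6 of the 13 had estimates of both signs, with none passing on any probe set. In 3 of those 6 (COX5B, NDUFA6 and NDUFB8) the signs differed between probe sets above the reference. The 6 probe sets below the reference belonged to NDUFA2, NDUFA5, NDUFB7, NDUFB8, SDHD and COX4I1, each a gene with a brighter probe set. Members whose annotation is shared with another gene were kept apart. UQCRH, the hinge protein of complex III, shares its probe set with UQCRHL (0.12, adjusted p = 0.160), and NDUFS5 of complex I shares one with RPL10 (-0.0033). NDUFS8, a core iron-sulfur subunit, shares a pair of probe sets with microRNA genes (0.20 and 0.15, adjusted p = 0.272 and 0.303). None of these 4 passed, and NDUFA4 was not analysed here.

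Array SH3GL2 2 stood apart from the others in the members. It was the highest of the 6 arrays in 34 of the 59 member probe sets above the reference, and in 2877 of all 10789. The median deviation of the members from the mean of the 6 arrays was 0.085 in SH3GL2 2, against -0.042 and 0.022 in SH3GL2 1 and 3 and -0.040, -0.032 and 0.00 in empty vector 1, 2 and 3. All probe sets above the reference had a median deviation of 0.013 in the same array. By complex it reached 0.13 for complex I, 0.14 for complex II, 0.038 for complex III and 0.077 for complex IV. Without SH3GL2 2 the medians of the log2 fold change were 0.0025 for complex I, 0.00 for complexes II and IV, and 0.039 for complex III. Array SH3GL2 1 was the lowest of the 6 in 19 of 59, and without it the median over all members was 0.072. The small positive median of the members thus moved with single SH3GL2 arrays, and the part of array differences in it was not tested further.

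**Figure D3:**
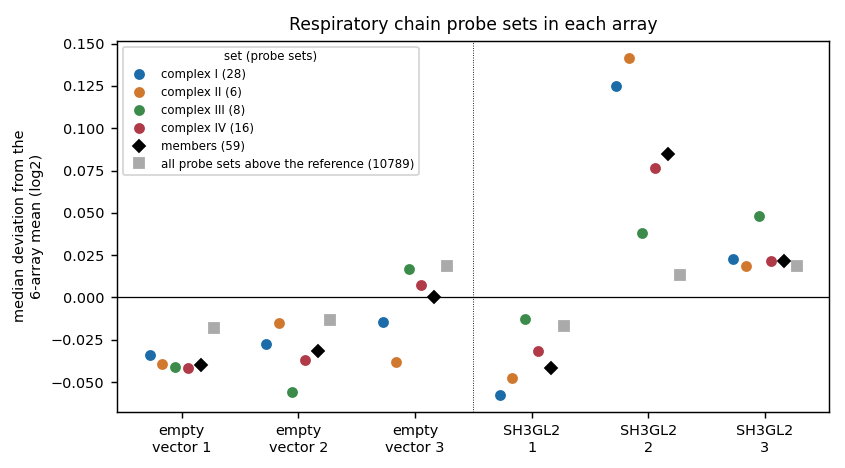
Median deviation of each set of probe sets from its 6-array mean (y axis, log2) in each array (x axis), for complexes I to IV, all 59 members and all 10789 probe sets above the reference. SH3GL2 2 holds the highest value of complexes I, II and IV, and the SH3GL2 arrays do not move together.

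Genes around the pathway were counted in the same way, with 1 probe set a gene. The genes of these lists that are not members came to 163, of which 7 rose (4.29%) and 1 fell, with a median log2 fold change of 0.060. Over all probe sets the shares were 1.99% higher and 2.18% lower, and above the reference 3.24% and 3.36%. At an unadjusted p under 0.05 (limma) 29 of the 163 were higher and 2 lower, against 1831 and 1693 of all 22215 probe sets. The 29 were 10 mitochondrial ribosome genes, 6 each of ATP synthase, assembly and glycolysis, and 1 of the citric acid cycle. ATP synthase, the enzyme that uses the proton gradient, had 16 measured genes, all with positive estimates (median 0.077). Its catalytic-domain subunit ATP5F1A rose, from 13.61, 13.63 and 13.59 to 13.75, 13.85 and 13.81, by 0.19 (adjusted p = 0.0148). Of 27 measured assembly factors 2 rose: TMEM126B, needed to build complex I, by 0.30 (adjusted p = 0.00293) and COA4, of complex IV assembly, by 0.33 (adjusted p = 0.00315). Of 52 mitochondrial ribosome genes 2 rose, MRPL48 by 0.28 (adjusted p = 0.0153) and MRPL49 by 0.31 (adjusted p = 0.0295).

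In the citric acid cycle, which supplies NADH and succinate, 1 of 17 genes fell and none rose. It was DLD, the lipoamide dehydrogenase shared by several ketoacid dehydrogenases, which read 10.54, 10.68 and 10.73 against 10.40, 10.38 and 10.37, a log2 fold change of -0.27 (adjusted p = 0.0301). In glycolysis 2 of 19 rose, the phosphofructokinase PFKM by 0.21 (adjusted p = 0.0326) and the aldolase ALDOC by 0.42 (adjusted p = 0.0162), with a median of 0.087 over the list. By limma none of 24 regulators of mitochondrial biogenesis passed (0 higher and 1 lower at an unadjusted p under 0.05). PPARGC1A, the coactivator PGC-1α, lay below the reference at 4.62 ± 0.18 and 4.72 ± 0.07 (SD, n = 3 each). None of 8 other respiratory subunits passed either, with 0 at an unadjusted p under 0.05 (limma), and none of the 15 listed mitochondrially encoded genes was analysed here. These calls rest on small differences: the number of the 8 called genes of these lists fell to 2 without empty vector 2 or without SH3GL2 3 and to 4 without empty vector 1 or 3.

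Some members at the ends of the order, NDUFB5, NDUFB4, NDUFV1 and NDUFA5, had chromosomal neighbours that leaned the same way, and others did not. This comparison was added after the values were seen. For each of 6721 genes above the reference with 1 probe set each, the median log2 fold change was taken over up to 20 such genes on each side in RefSeq order, with members and genes of the other lists left out. Over all genes these neighbour medians had quartiles of -0.017 and 0.042. NDUFB5 and NDUFB4 lie on chromosome 3, and their neighbour medians were 0.13 and 0.13, beside their own log2 fold changes of 0.32 and 0.22. The neighbours of NDUFV1 on chromosome 11 had a median of 0.17, beside its own 0.26. On chromosome 7 the neighbours of NDUFA5 had a median of -0.14, beside its own -0.18.

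Exceptions were present in both directions. NDUFB2, also on chromosome 7, had neighbours at -0.14 and its own estimate at -0.010, and NDUFS4, an accessory subunit, had neighbours at -0.090 and its own at 0.10. NDUFA3 and NDUFA8 had neighbours at 0.043 and 0.010, beside their own 0.22 and 0.18. NDUFA6, an accessory subunit, and SDHD had neighbours at 0.048 and 0.057 and their own estimates at -0.097 and -0.080. The dimmer NDUFA6 probe set, also above the reference, gave 0.067, so the exception of NDUFA6 rests on its brighter probe set. The other 178 genes of chromosome 22, where NDUFA6 lies, had a median of 0.062. Across the 44 members Pearson's r between own and neighbour values was 0.656 and Spearman's rho 0.544, and without NDUFB4 and NDUFB5 they were 0.577 and 0.477. The same values were 0.481 and 0.342 for 150 genes of the other lists and 0.253 and 0.283 for the 6527 remaining genes. These points share the 6 arrays, nearby genes share neighbours, and genes are not independent replicates, so the correlations are descriptions. Own values ran from -0.18 to 0.32 in the members and from -3.60 to 2.90 in all probe sets above the reference. The size of r was therefore not compared between sets. NDUFV1 and NDUFA5 stayed in the set without NDUFB4 and NDUFB5. Leaving out empty vector 1 or SH3GL2 1 moved the neighbour median of NDUFB4 to 0.083 and 0.084.

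**Figure D4:**
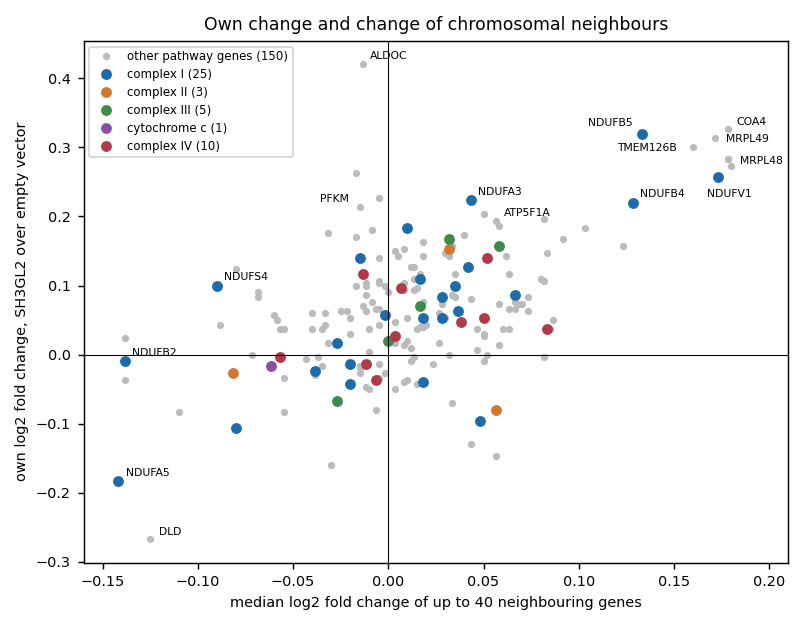
Own log2 fold change (y axis) against the median log2 fold change of up to 40 chromosomal neighbours (x axis) for 44 members, coloured by complex, and 150 genes of the other lists in grey. NDUFB5, NDUFB4 and NDUFV1 lie at the upper right and NDUFA5 at the lower left, while ALDOC and NDUFA3 lie high with neighbours near 0.

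Several called genes of the other lists lay in the same stretch of chromosome 11 order as NDUFV1. TMEM126B, COA4, MRPL48 and MRPL49 had neighbour medians of 0.16, 0.18, 0.18 and 0.17. DLD lay on chromosome 7 with neighbours at -0.13. ATP5F1A, PFKM and ALDOC had neighbours at 0.057, -0.015 and -0.013. The median over the other genes was 0.070 on chromosome 3 (385 genes), 0.057 on chromosome 11 (398 genes) and -0.030 on chromosome 7 (279 genes). The part of position in the members' changes was not tested.

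**Figure D5:**
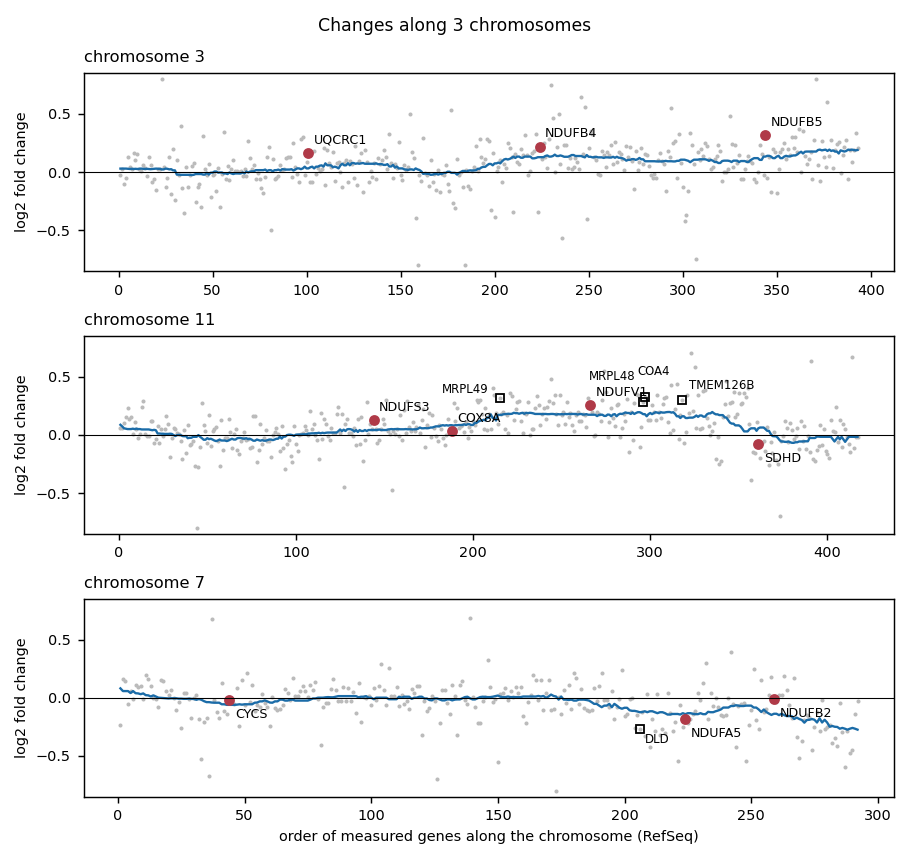
Log2 fold change (y axis, values beyond 0.8 drawn at 0.8) of genes above the reference in their order along chromosomes 3, 11 and 7 (x axis, number in order), with the neighbour median as a blue line. Red points are members and open squares the called genes of other lists; the line lies above 0 around NDUFB4, NDUFB5 and NDUFV1 and below 0 around NDUFA5 and NDUFB2.

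Members with and without each promoter core overlapped in their estimates. The measured members whose window held the NRF1 core had a median log2 fold change of 0.027 (9 genes), beside 0.055 for the 30 without it. For the ETS core the medians were 0.037 (11 genes) and 0.067 (28 genes), and for the YY1 core 0.10 (9 genes) and 0.032 (30 genes). All these medians lay within the range of single members, and no test was made of their difference.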

How the data were processed

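Total RNA of SUM-159 cells was hybridized to 6 Affymetrix U133A 2.0 arrays, and groups were taken from the sample labels. The authors deposited log2 signals per probe set; their methods name GCOS software and the submitters' notes MAS5 without a version, and scaling between arrays is not given in the sources used here. Values were used as deposited, without an offset or filter. Of 22277 probe sets, 62 controls were left out. The platform annotation gave 1 symbol to 19064 probe sets, several to 1043 and none to 2108. The comparison was a two-sided moderated test in limma 3.58.1 under R 4.3.3, whose eBayes step followed the intensity trend. P-values were adjusted by Benjamini-Hochberg across all 22215 probe sets tested, and 0.05 was the threshold. With 3 arrays per group an exact permutation test cannot go below p = 0.1, and the number of arrays limits the precision. Fits were tested on simulated data. The members and lists were chosen with earlier results of these data known. Values in every array are given for members past the threshold, complex II, CYC1, CYCS and the largest and smallest change above the reference in complexes I, III and IV; others named were chosen after their values were seen. Alternatives were other normalizations (quantile, median centring, cyclic loess), an offset of 16, a floor, a filter, other variance models, a one-way analysis of variance, a replicate block, a threshold of 0.01, 1 value per gene and leaving out each array. Same-numbered arrays had residual correlations of -0.01, 0.13 and 0.15, so numbers were not taken as pairs. Plots were made in matplotlib 3.10.9 (Python 3.11.15).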

Additional observations from a re-analysis of the deposited data

How the results depend on the processing

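The count of 0 member probe sets that fell held under all alternatives run. The count of 2 that rose became 1 under median centring, a floor at the reference median, eBayes without an intensity trend, a one-way analysis of variance and an adjusted p under 0.01, became 3 under quantile normalization, cyclic loess and 1 probe set a gene, and ran from 1 to 4 when arrays were left out in turn. Where the count was 1 it was NDUFB5, and NDUFB4 was lost, with an adjusted p of 0.0827, 0.202, 0.200 and 0.297 under the first 4 settings (limma, and analysis of variance for the last). Blocking on the replicate number left 2 probe sets higher and 0 lower, with an adjusted p of 0.0256 for NDUFB4, and changed no call of a named member. The 8 called genes of the other lists became 3 with the floor, 2 without the trend, 0 by analysis of variance and 2 at an adjusted p under 0.01, rose to 10 under quantile normalization, cyclic loess and the filter for brighter probe sets and to 9 under the robust prior, the replicate block and 1 probe set a gene, and ran from 2 to 9 when arrays were left out. The cause was not tested.

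The median of complex II was -0.027 with 1 probe set a gene and with the mean of a gene's probe sets. Leaving out arrays in turn gave medians of 0.0025 to 0.093 for complex I, 0.00 to 0.087 for complex II, 0.023 to 0.080 for complex III and 0.00 to 0.065 for complex IV. Estimates near 0 changed sign: UQCRC2 was -0.0033 under median centring, and when arrays were left out it ran from -0.045 to 0.055. In the same way CYCS ran from -0.062 to 0.028, NDUFB2 from -0.048 to 0.017, SDHA from -0.067 to 0.023 and COX7A2 from -0.047 to 0.048. The neighbour median of NDUFA5 was -0.087 with 40 genes on each side, and r between members and neighbours ran from 0.614 to 0.669 over the alternatives. Other normalizations moved the median of all probe sets from 0.010 to between -0.0033 and 0.0044. Signal over the reference limits 6 of the 65 probe sets.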
